A study of Mus musculus with 10 samples.

Results

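The heritable pulmonary hypertension genes are the mouse counterparts of 10 genes in which inherited variants are linked to pulmonary arterial hypertension: Bmpr2, Acvrl1, Eng, Smad9, Cav1, Aqp1, Atp13a3, Tbx4, Sox17 and Eif2ak4. They were taken by gene symbol from the 54532 genes of the deposited table, and all 10 were found, each in a single row. The rule itself uses the symbols alone. The table holds mRNA levels of whole lung from 10 wild-type C57BL/6J mice at postnatal day 30. In 5 mice the pulmonary blood flow had been increased (IPF) by a needle puncture from the abdominal aorta into the inferior vena cava at postnatal day 7, and 5 sham mice had the same operation without the puncture. No transgene or further allele was part of either group, and no drug was given as a test treatment. The methods describe isoflurane anaesthesia, buprenorphine after surgery and mice of both sexes. The question here is whether an imposed flow load, with no mutation, went with another level of the genes whose mutation leads to the disease.

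Most of the 10 genes act in or near the lung endothelium. The ligands BMP9 and BMP10 (genes Gdf2 and Bmp10) circulate in the blood and bind a receptor complex of the type I receptor ALK1 (Acvrl1), the type II receptor BMPR2 and the co-receptor endoglin (Eng), which phosphorylates the transcription factors SMAD1, SMAD5 and SMAD9 and so switches on targets such as the Id genes. Loss of BMPR2 is the most frequent cause of the heritable disease, and loss of ALK1 or endoglin also causes hereditary haemorrhagic telangiectasia. The other 6 genes have separate jobs: Cav1 builds the coat of caveolae, Aqp1 is a water channel of capillary endothelium, Atp13a3 is a polyamine transporter of the P5B ATPase family, Tbx4 and Sox17 are transcription factors of lung mesenchyme and of arterial endothelium, and Eif2ak4 encodes GCN2, a kinase that senses amino acid shortage and is lost in pulmonary veno-occlusive disease.

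Values are FPKM, fragments scaled to gene length and to library size, so that levels of different genes can be set side by side. Between 15483046 and 19026843 reads fell on genes in each library, and no pair of libraries within a group agreed to within sampling noise. One library, sham replicate 1, stood apart: its mean Spearman correlation with the others across genes was 0.957 against 0.963 to 0.968 for the rest, it had 25486 genes above 0 against 22475 to 23575, and its 10 alveolar type 2 markers summed to 13365 FPKM against 17420 or more. Without it 0 of the 10 members were called, as with it, and differences of Eif2ak4, Tbx4 and Aqp1 that rest partly on it are given both ways. Differences are IPF minus sham on log2(FPKM + 0.1), tested with limma over the 20448 genes that averaged 0.1 FPKM or more, and a gene was called at a Benjamini-Hochberg adjusted p under 0.05. By that rule 5.85% of all genes tested were called, 3.71% higher and 2.14% lower in IPF. The groups also differed in sex-linked and clock genes. Xist, which marks female cells, lay between 26.8 and 43.2 FPKM in the IPF lungs and between 0.0301 and 0.0767 in the sham lungs. The Y-linked Ddx3y was listed at 0 in every IPF lung and at 14.3 to 21.4 FPKM in the sham lungs. Of 16 circadian clock genes 15 were called, 4 higher and 11 lower in IPF. Surgery, sex and sampling time therefore cannot be told apart in any difference below. Nothing states that replicates came from separate litters, and in whole lung a change in the number of cells of a type cannot be told apart from a change in RNA per cell.

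All 10 genes were expressed, over a 122-fold range of sham means. In the sham lungs the order of the mean levels ran from Cav1 (449 ± 20.5 FPKM, SD, n = 5) over Aqp1 (332 ± 25.8), Eng (204 ± 9.06), Acvrl1 (203 ± 5.16), Bmpr2 (59.1 ± 6.23), Tbx4 (42.4 ± 3.83), Atp13a3 (34.2 ± 4.30) and Sox17 (18.5 ± 2.73) to Eif2ak4 (4.33 ± 0.421) and Smad9 (3.69 ± 0.500). Cav1, Aqp1, Eng and Acvrl1 lay at percentiles 99.3 to 99.8 of the tested genes, whereas Eif2ak4 and Smad9 lay near the middle, at percentiles 55.4 and 54.3. Eng and Acvrl1 did not differ beyond their spread, with Eng the higher in 6 of 10 lungs, nor did Eif2ak4 and Smad9, with Eif2ak4 the higher in 5 of 10. Every other neighbour in the order kept its place in at least 9 of 10 lungs.

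**Figure D1:**
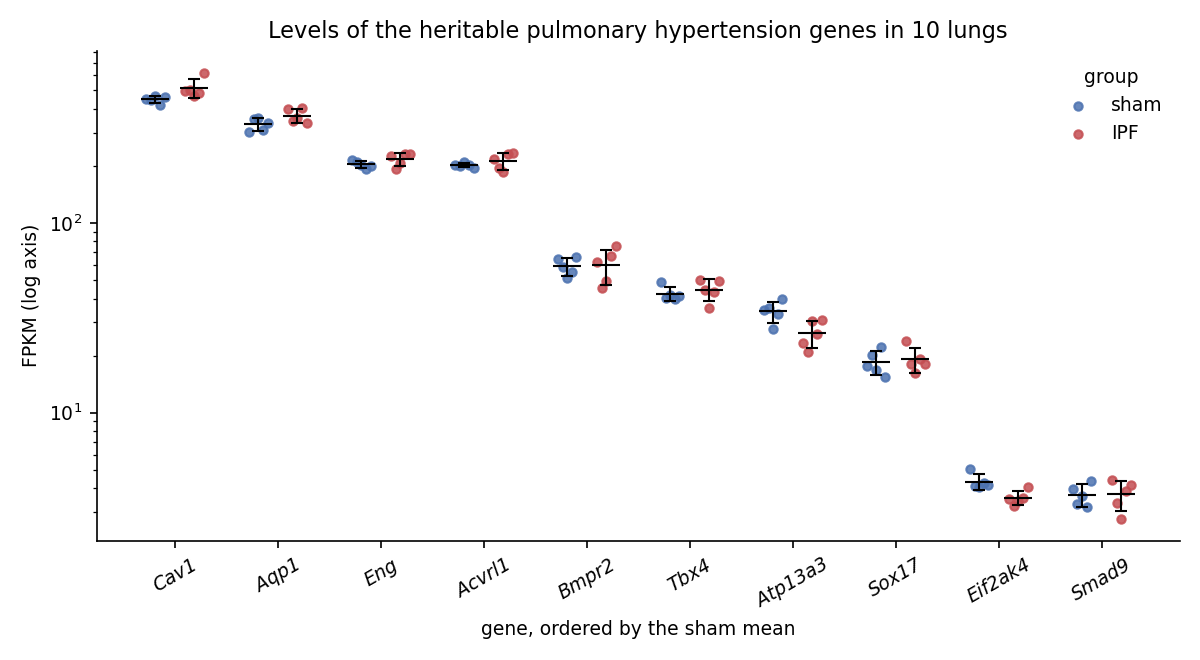
FPKM on a log axis (y) of each of the 10 genes (x) in the 5 sham (blue) and 5 IPF (red) lungs. Points are single lungs, the horizontal bar is the group mean and the whiskers are 1 SD. The groups overlap for every gene, and the IPF lungs sit lowest relative to sham for Atp13a3 and Eif2ak4.

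None of the 10 genes was called different between IPF and sham. The smallest adjusted p was 0.0975 (limma), 2 genes (Eif2ak4 and Atp13a3) had an unadjusted p under 0.05, against 19.5% of all genes tested, and limma voom on the reads recovered from the values gave 0 called and 3 at an unadjusted p under 0.05. No member had IPF and sham values that did not overlap, a pattern seen in 7.29% of all genes. No member passed the study's double limit of an adjusted p under 0.05 with an absolute log2 difference above 1, which 1.14% of genes passed. The difference was above 0 for 7 members and below 0 for 3, with a median of 0.06 against 0.00 over all genes, and the median absolute difference was 0.0746 against 0.170. The exact permutation test over samples cannot give a p under 0.00794 with 5 against 5.

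**Figure D2:**
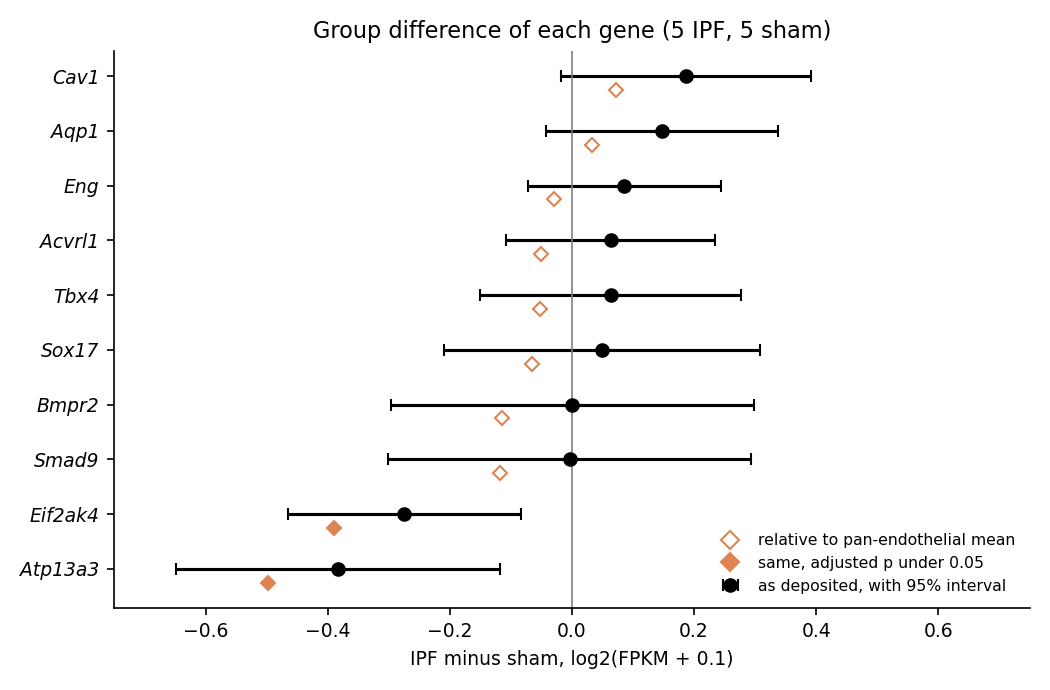
IPF minus sham on log2(FPKM + 0.1) (x) for each gene (y), as deposited (black points with 95% intervals from limma) and after the mean of 16 pan-endothelial marker genes was subtracted in each lung (orange diamonds, filled where the adjusted p was under 0.05). As deposited, the intervals of 8 genes include 0 and none of the 10 was called. Atp13a3 (-0.38) and Eif2ak4 (-0.27) lie farthest below 0.

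Bmpr2 (ENSMUSG00000067336, chr1:59763400-59879014, plus strand, GRCm38), the type II receptor and the main gene of the disease, had the same mean level in both groups. Its levels were 62.1, 45.5, 49.3, 66.9 and 75.7 FPKM in the IPF lungs and 64.2, 58.7, 51.0, 55.3 and 66.1 FPKM in the sham lungs. The IPF lungs held both the 2 highest and the 2 lowest values, so their coefficient of variation was 20.8% against 10.6% in sham. The difference was 0.00 on the log2 scale (SE 0.14, 95% interval -0.30 to 0.30, limma adjusted p = 0.998, exact permutation p = 0.992), so a change in either direction of up to 23.0% upward or -18.6% downward lies within the interval. With 13627 to 24079 reads per library on the gene, counting error was small beside this spread between lungs.

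Acvrl1 (ENSMUSG00000000530, chr15:101128522-101145336, plus strand), the type I receptor ALK1, gave 219, 195, 185, 231 and 234 FPKM in IPF and 202, 201, 210, 203 and 196 FPKM in sham. The sham lungs lay within a narrow band (coefficient of variation 2.55%), and 3 IPF lungs were above and 2 below all of them (10.3%). The difference of 0.06 (SE 0.08, 95% interval -0.11 to 0.23) was not called (limma adjusted p = 0.709), and was 0.03 without IPF replicate 5 and 0.11 without IPF replicate 3, also not called. An antisense gene, Gm16031, overlaps Acvrl1, with at most 77 reads in a library, and whether reads were counted by strand is not stated.

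Eng (ENSMUSG00000026814, chr2:32646595-32682669, plus strand), the endoglin co-receptor, was measured at 226, 192, 206, 232 and 230 FPKM in IPF and at 216, 210, 203, 192 and 200 FPKM in sham. Again 3 IPF lungs were the highest, and the lowest was also an IPF lung. The difference was 0.09 (SE 0.07, 95% interval -0.07 to 0.24, limma adjusted p = 0.568). Smad9 (ENSMUSG00000027796, chr3:54755582-54801257, plus strand), the receptor-regulated SMAD of the list, gave 4.43, 3.33, 2.77, 3.85 and 4.15 FPKM in IPF and 3.98, 3.28, 3.64, 3.18 and 4.39 FPKM in sham. The groups covered almost the same range, and the difference was -0.00 (SE 0.14, 95% interval -0.30 to 0.29, limma adjusted p = 0.995). Smad9 had the lowest sham mean of the 10 genes, with 281 to 405 reads per library.

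Bmpr2 and Smad9 are shown with their promoter windows because, of the 7 members with a RefSeq window (GRCm38.p6, 250 bases before to 50 after the start, 9 windows in all), they were the 2 that held the GC-rich element GGCGCC, to which SMAD1, SMAD5 and SMAD9 can bind. Capitals mark that element, which reads the same on both strands and overlapped no other motif searched here. It occurs in 11.9% of all 32851 windows.
Bmpr2, chr1:59764029-59764328, plus strand: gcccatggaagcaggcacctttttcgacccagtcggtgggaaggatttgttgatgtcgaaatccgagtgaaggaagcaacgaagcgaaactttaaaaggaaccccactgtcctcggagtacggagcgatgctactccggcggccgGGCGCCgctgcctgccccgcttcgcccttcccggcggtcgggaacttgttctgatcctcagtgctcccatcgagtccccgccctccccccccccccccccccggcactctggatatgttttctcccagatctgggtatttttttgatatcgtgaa
Smad9, chr3:54755332-54755631, plus strand: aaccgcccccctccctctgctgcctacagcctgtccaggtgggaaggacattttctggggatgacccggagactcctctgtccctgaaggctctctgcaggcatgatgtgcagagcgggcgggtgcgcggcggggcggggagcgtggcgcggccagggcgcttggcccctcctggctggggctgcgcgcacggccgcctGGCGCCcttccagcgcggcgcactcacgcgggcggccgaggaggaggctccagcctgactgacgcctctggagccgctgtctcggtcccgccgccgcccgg
Both windows were rich in CpG, with 23 in Bmpr2 and 31 in Smad9 against a median of 7 over all windows. The short SMAD box GTCTG, present in 49.6% of all windows on one strand or the other, was in neither, and was found in windows of Aqp1, Cav1, Eif2ak4 and Eng. No member window held the clock factor E-box CACGTG (7.15% of all windows), the ETS letters CCGGAA (14.9%), the Sox letters ACAATG (12.6%) or the nuclear receptor letters AGGTCA (16.3%). Acvrl1, Atp13a3 and Sox17 had no entry. A match of letters is a description of the window and not a binding site.

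Around the receptor complex, a few genes of BMP signalling were called, namely the ligand genes Bmp3 and Bmp4, the modulators Chrdl1 and Fstl3 and the targets Atoh8 and Id3. Differences between the lists were not tested. Of 48 listed pathway genes 44 were tested, of which 5 were higher and 1 was lower in IPF (13.6%, against 5.85% of all genes), with a median difference of 0.02 against 0.00. All genes here include non-coding ones. In the fit of protein-coding genes alone 1429 of 14872 genes were called, among them 7 pathway genes. The list was chosen with earlier results of these data known. Relative to the pan-endothelial mean (the mean of 16 endothelial marker genes in each lung), the split was 4 higher and 3 lower. No other receptor or co-receptor was called (0 of 9, 1 at an unadjusted p under 0.05): the type I receptor Bmpr1a was at 22.2 ± 1.56 FPKM in IPF and 21.8 ± 1.27 in sham (n = 5 each), and the decoy receptor Bambi came nearest at 6.12 ± 0.419 against 4.77 ± 0.755 (0.36, SE 0.10, limma adjusted p = 0.0686). No other Smad or Smad regulator was called (0 of 9, 0 at an unadjusted p under 0.05). The receptor-regulated Smads were level, with 7.04 ± 0.415 against 7.02 ± 0.495 FPKM for Smad1 and 20.5 ± 0.646 against 20.1 ± 1.23 FPKM for Smad5, and the ubiquitin ligase gene Smurf1 had the smallest adjusted p of the list (-0.11, adjusted p = 0.350).

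Among the ligands, 2 of 7 tested were called higher and 0 lower, with 4 differences above 0 and 3 below. Of all genes 3.71% were called higher and 2.14% lower. Bmp3, a ligand that opposes classical BMP signals, was at 23.5, 25.4, 23.3, 24.5 and 18.5 FPKM in IPF and at 11.8, 11.6, 9.95, 11.5 and 11.5 FPKM in sham. The lowest IPF lung lay well above the highest sham lung, and the difference of 1.02 (SE 0.09, limma adjusted p = 0.000108) was the largest of any called gene of the pathway. Bmp4, a ligand made by lung epithelium and mesenchyme, was at 35.0, 30.9, 31.2, 29.9 and 33.0 FPKM in IPF and at 24.3, 23.8, 26.7, 24.3 and 23.9 FPKM in sham. These groups did not overlap either (0.38, SE 0.06, adjusted p = 0.00361). Bmp5 was lower without passing the threshold (13.3 ± 1.14 against 15.96 ± 1.65 FPKM, -0.26, adjusted p = 0.0998), and Bmp6 higher without passing it (62.7 ± 4.42 against 53.7 ± 5.06 FPKM, 0.23, adjusted p = 0.119). The ligands of the Acvrl1 complex itself are made mainly in liver and heart: Gdf2 had at most 31 reads in a library, and Bmp10 had reads in 1 library, 2 in all.

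Extracellular modulators moved in both directions, with 1 of 10 tested called higher and 1 lower, against 3.71% and 2.14% of all genes. Chrdl1, a secreted BMP antagonist, rose from 1.99 ± 0.479 to 3.63 ± 0.328 FPKM (0.86, SE 0.15, limma adjusted p = 0.00717). It lies on chromosome X, and the groups also split by Xist. Fstl3, which binds activins and some BMPs, fell from 6.92 ± 0.197 to 5.01 ± 0.628 FPKM (-0.47, SE 0.08, adjusted p = 0.00874). For both genes all 5 IPF lungs lay outside the sham range.

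Of 9 tested BMP targets 2 were called higher and 0 lower, against 3.71% and 2.14% of all genes. Among the targets 6 differences were above 0 and 3 below. Atoh8, a transcription factor gene switched on by BMP receptors in endothelium, was at 9.68, 10.3, 7.93, 9.92 and 9.04 FPKM in IPF and at 6.39, 6.16, 6.86, 6.06 and 6.28 FPKM in sham. All IPF lungs were higher (0.55, SE 0.08, limma adjusted p = 0.00237). Id3, an inhibitor of differentiation, was at 120, 116, 111, 110 and 125 FPKM in IPF and at 65.5, 100, 87.1, 102 and 81.9 FPKM in sham. Its call was marginal (0.43, SE 0.11, adjusted p = 0.0443) and held in 11 of 23 alternative fits, with adjusted p up to 0.0942. Id1, the target most often used as a readout of this pathway, was at 83.7 ± 16.6 FPKM in IPF and 83.2 ± 10.1 in sham (-0.00, SE 0.14, adjusted p = 0.992).

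**Figure D3:**
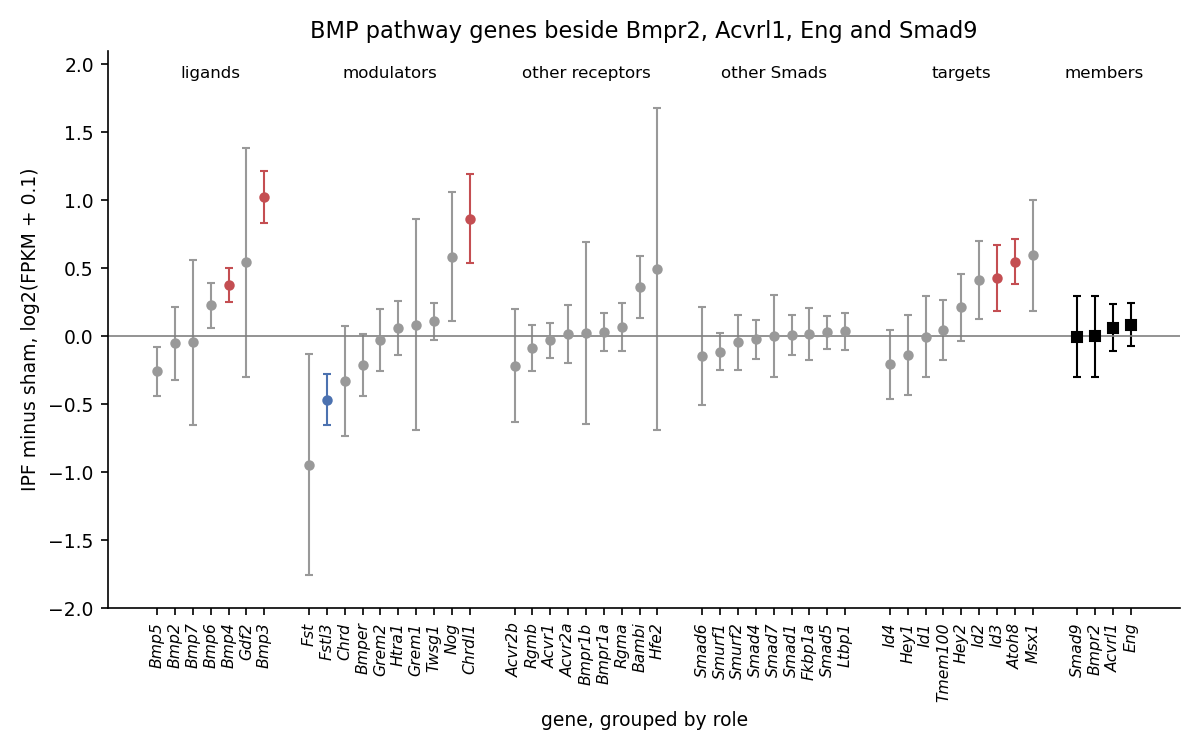
IPF minus sham on log2(FPKM + 0.1) (y) with 95% intervals from limma for 44 tested genes of the BMP pathway (x), grouped by role, beside Smad9, Bmpr2, Acvrl1 and Eng (black squares). Red marks the 5 genes called higher and blue the 1 called lower at an adjusted p under 0.05, and grey marks the rest. These 4 genes lie between -0.00 and 0.09, while Bmp3 reaches 1.02.

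Cav1 (ENSMUSG00000007655, chr6:17306335-17341452, plus strand), the main coat protein of endothelial caveolae, had, as deposited, the largest positive difference of the 10 genes, which became -0.03 after quantile normalization. Its levels were 497, 502, 469, 483 and 618 FPKM in IPF and 453, 443, 469, 417 and 464 FPKM in sham. In 4 of 5 cases the IPF lung was above all sham lungs, and the fifth, IPF replicate 3, lay just below the highest sham lung. The difference of 0.19 (SE 0.09, 95% interval -0.02 to 0.39) was not called (limma adjusted p = 0.301, exact permutation p = 0.0159 before any adjustment), and without IPF replicate 5, the highest lung, it was 0.12 (adjusted p = 0.411), below the 0.18 of Aqp1 in the same fit. The list of other caveolar genes had 0 of 10 called and 2 at an unadjusted p under 0.05, with 4 differences above 0, 6 below 0 and a median of -0.03. The coat gene Cavin1 was at 231 ± 14.6 against 209 ± 8.31 FPKM (0.14, adjusted p = 0.260), the partner Cav2 at 159 ± 29.5 against 145 ± 16.8 FPKM (0.13, adjusted p = 0.624), and the muscle form Cav3, with at most 51 reads, had the smallest adjusted p (0.73, adjusted p = 0.0798). The other gene with a small unadjusted p was Pacsin2, which helps to bend the membrane at caveolae, and it lay in the opposite direction (39.6 ± 1.65 against 43.8 ± 1.49 FPKM, -0.14, adjusted p = 0.117), with all 5 IPF lungs below all sham lungs.

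Aqp1 (ENSMUSG00000004655, chr6:55336432-55348555, plus strand), the endothelial water channel, gave 398, 343, 359, 404 and 336 FPKM in IPF and 301, 355, 357, 310 and 338 FPKM in sham. In 3 IPF lungs the level was above every sham lung, and the other 2 lay within the sham range. The difference was 0.15 (SE 0.09, 95% interval -0.04 to 0.34, limma adjusted p = 0.388), and was 0.11 without sham replicate 1, the lowest lung, 0.07 after quantile normalization and 0.03 relative to the pan-endothelial mean. Of 10 other aquaporins 5 were tested and 0 called. Aqp5, the water channel of alveolar type 1 cells, was the one with the smallest adjusted p (102 ± 10.3 against 118 ± 12.5 FPKM, -0.21, adjusted p = 0.242).

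Atp13a3 (ENSMUSG00000022533, chr16:30312423-30405975, minus strand), the polyamine transporter, had the largest difference of the 10 genes, and it was towards lower levels in IPF. The levels were 23.5, 21.0, 30.3, 25.8 and 30.9 FPKM in IPF and 34.8, 35.5, 27.7, 33.2 and 39.6 FPKM in sham. In 3 IPF lungs the level was below all sham lungs, and sham replicate 3 lay within the IPF range. The difference was -0.38 (SE 0.12, 95% interval -0.65 to -0.12), or -23.3% (-36.2% to -7.80%), with an unadjusted p of 0.00885 and an adjusted p of 0.0977 by limma (exact permutation p = 0.0317). It did not pass the threshold, nor did it when each lung in turn was left out (-0.46 to -0.31). None of 14 tested genes of the P5B ATPase and polyamine list was called, and 4 had an unadjusted p under 0.05. Odc1, the first enzyme of polyamine synthesis, had the smallest adjusted p (21.6 ± 3.69 against 27.2 ± 3.11 FPKM, -0.34, adjusted p = 0.136), and the related transporter Atp13a2 was at 23.9 ± 1.85 against 22.7 ± 1.07 FPKM.

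Eif2ak4 (ENSMUSG00000005102, chr2:118388618-118475234, plus strand), encoding the kinase GCN2, was the other gene whose 95% interval lay wholly below 0. It was at 3.52, 3.23, 3.43, 3.56 and 4.06 FPKM in IPF and at 5.07, 4.11, 4.05, 4.25 and 4.16 FPKM in sham. In 4 IPF lungs the level was below all sham lungs, and IPF replicate 5 lay at the level of the lowest of them. The difference was -0.27 (SE 0.09, 95% interval -0.46 to -0.08), or -17.3% (-27.5% to -5.66%), with an unadjusted p of 0.00881 and an adjusted p of 0.0975 by limma (exact permutation p = 0.0159). Of the 10 fits that left out 1 lung each, the one without IPF replicate 5 passed the threshold (-0.32, adjusted p = 0.0428). Without sham replicate 1, the highest lung, the difference was -0.22 and, as with all lungs, not called (adjusted p = 0.163).

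The Eif2ak4 promoter window at the first of its 2 RefSeq starts is shown because this gene, with Atp13a3, came nearest to a call. Capitals mark the SMAD box GTCTG, here as its reverse complement CAGAC.
Eif2ak4, chr2:118388367-118388666, plus strand, GRCm38.p6: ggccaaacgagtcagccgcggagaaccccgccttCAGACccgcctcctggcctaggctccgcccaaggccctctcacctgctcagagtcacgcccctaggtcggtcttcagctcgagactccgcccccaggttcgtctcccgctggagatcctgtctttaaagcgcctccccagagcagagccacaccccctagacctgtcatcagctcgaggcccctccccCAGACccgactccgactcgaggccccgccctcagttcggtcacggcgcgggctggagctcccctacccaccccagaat
The second window of the gene, chr2:118388862-118389161, held 3 copies.

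GCN2 acts by phosphorylating the initiation factor eIF2 alpha, after which ATF4 and its targets are made. Of 19 tested genes of this integrated stress response 1 was called higher and 1 lower, against 3.71% and 2.14% of all genes. Sesn2, a stress-induced inhibitor of mTORC1, fell from 8.20 ± 0.455 to 6.16 ± 0.578 FPKM (-0.41, SE 0.07, limma adjusted p = 0.00883), with all 5 IPF lungs below all sham lungs. Ddit3, the transcription factor CHOP, rose from 10.4 ± 0.890 to 13.9 ± 1.89 FPKM (0.41, SE 0.10, adjusted p = 0.0323), a call that held in 13 of 23 alternative fits, with adjusted p up to 0.141. The central factor Atf4 was at 74.1 ± 5.02 against 69.5 ± 9.15 FPKM (adjusted p = 0.604), and the amino acid response gene Asns at 7.31 ± 0.960 against 7.46 ± 0.827 FPKM (adjusted p = 0.912).

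Tbx4 (ENSMUSG00000000094, chr11:85886422-85916097, plus strand), a T-box factor of lung mesenchyme, gave 50.2, 44.2, 35.5, 43.3 and 49.5 FPKM in IPF and 49.1, 40.4, 41.8, 39.8 and 41.0 FPKM in sham. The groups overlapped widely, and the difference was 0.06 (SE 0.10, 95% interval -0.15 to 0.28, limma adjusted p = 0.774), or 0.12 (adjusted p = 0.575) without sham replicate 1, the highest sham lung. Sox17 (ENSMUSG00000025902, chr1:4490931-4497354, minus strand), an SRY-box factor of arterial endothelium, gave 23.9, 18.0, 16.3, 19.2 and 18.0 FPKM in IPF and 17.6, 20.2, 16.8, 22.2 and 15.5 FPKM in sham. Apart from IPF replicate 1 the IPF lungs lay within the sham range (0.05, SE 0.12, 95% interval -0.21 to 0.31, adjusted p = 0.868).

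Sox17 belongs to the SoxF family with Sox7 and Sox18, which are also endothelial and were both higher in IPF. Of 10 tested T-box, Sox and related factors these 2 were called, against 5.85% of all genes. Sox18 was at 126, 102, 107, 113 and 128 FPKM in IPF and at 76.8, 90.2, 80.4, 85.2 and 72.01 FPKM in sham. Every IPF lung was above every sham lung (0.51, SE 0.08, limma adjusted p = 0.00585). Sox7 was at 50.3, 44.6, 45.8, 46.3 and 45.6 FPKM in IPF and at 37.9, 37.3, 33.8, 41.7 and 32.0 FPKM in sham, again with no overlap (0.35, SE 0.07, adjusted p = 0.0165). Groups without overlap were seen in 7.29% of all genes. Relative to the pan-endothelial mean the Sox7 difference was 0.24 (adjusted p = 0.110). The difference between the response of Sox17 and that of either relative was not tested. Tbx2 (126 ± 16.9 against 124 ± 10.1 FPKM) and Tbx5 (14.7 ± 2.76 against 15.9 ± 1.69 FPKM), which share the lung mesenchyme with Tbx4, were not called (adjusted p = 0.975 and 0.643). Tbx2 is also among the aerocyte markers used below.

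A second list of 15 genes reported in heritable pulmonary hypertension was taken beside the 10. Of these 13 were tested, 0 were called and 2 had an unadjusted p under 0.05. Topbp1, a DNA damage response gene, had the smallest adjusted p (4.52 ± 0.623 against 5.76 ± 0.440 FPKM, -0.35, SE 0.10, limma adjusted p = 0.0649), with all 5 IPF lungs below all sham lungs. Kdr, the VEGF receptor of endothelium, was at 67.7 ± 8.50 against 57.0 ± 5.48 FPKM (0.24, adjusted p = 0.172), and the potassium channel gene Kcnk3 at 17.5 ± 2.16 against 18.4 ± 1.41 FPKM (adjusted p = 0.661).

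The level of endothelial markers is given beside these values, and its part in them was not tested. The summed level of 16 pan-endothelial markers ranged from 1889 to 2232 FPKM in IPF and from 1735 to 1842 FPKM in sham, and on the mean log2 scale 4 of 5 IPF lungs were above all sham lungs (difference 0.11). Of these markers 1, Cldn5, was called, and none of the 16 was at 0 in all lungs. The mean log2 level of 6 general capillary markers was higher in 5 of 5 IPF lungs (0.25). These genes were split, with 3 differences above 0 and 3 below. Their summed level overlapped, at 752 to 890 FPKM in IPF and 718 to 788 FPKM in sham. The mean of 8 arterial markers was higher in 4 of 5 IPF lungs (0.25) and that of 8 aerocyte markers in 3 of 5 (0.08). The venous mean differed by -0.01, with 1 of 5 IPF lungs above all sham lungs, and the lymphatic mean by 0.13, with 1 above and 1 below. The summed lymphatic level lay the other way, averaging 212 FPKM in IPF (161 to 295) and 268 FPKM in sham (248 to 283). Of the immune markers, the mean of 10 T and B cell markers was higher in 5 of 5 IPF lungs (0.62, 5 of 10 genes called), that of 10 neutrophil markers was higher in 2 of 5 (0.98, 0 called), and that of 10 macrophage markers in 2 of 5 (0.24, 0 called). The part of these cells in the members' values was not tested. Setting each lung relative to its pan-endothelial mean moves every gene down by the same amount, so that the median of all genes became -0.11. On that scale Atp13a3 (-0.50, limma adjusted p = 0.0255) and Eif2ak4 (-0.39, adjusted p = 0.0249) were called lower, as were 5.28% of all genes. The other 8 members then lay between -0.12 and 0.07 and were not called. Bmpr2, Acvrl1, Eng, Tbx4 and Sox17 changed sign by this common shift alone.

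The 10 genes also varied from lung to lung within a group, and several did so together. In IPF replicate 2 all 10 genes lay below their group mean and in IPF replicate 3 there were 9 below it, whereas 8 lay above it in IPF replicate 5. After the group means were removed, 36 of 45 gene pairs correlated positively over the 10 lungs (median Pearson r 0.376). The closest pair was Eng with Bmpr2 (r = 0.82, Spearman rho = 0.82, r = 0.73 without the 2 farthest lungs), followed by Tbx4 with Smad9 (r = 0.79, rho = 0.72, r = 0.67) and Eng with Acvrl1 (r = 0.75, rho = 0.72, r = 0.83). The lowest was Eif2ak4 with Aqp1 (r = -0.50, rho = -0.28), which turned to r = 0.38 without the 2 farthest lungs and so rests on them. These values are descriptions without a test, over lungs that share library, depth and tissue composition.

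**Figure D4:**
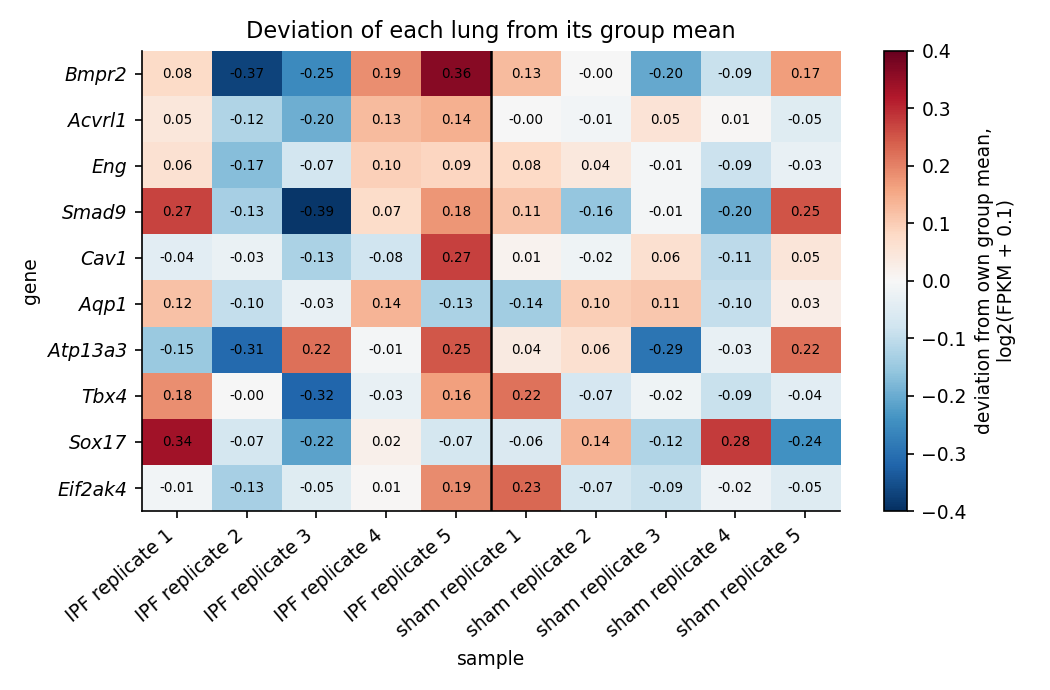
Deviation of each lung (x) from the mean of its own group on log2(FPKM + 0.1) for each of the 10 genes (y), with the value in each cell, red above and blue below the mean. IPF replicates 2 and 3 are low for nearly all genes and IPF replicate 5 is high for 8 of 10.

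Some cell type markers differed in single lungs. IPF replicate 5 had a summed level of 306 FPKM for neutrophil markers, against 57.1 to 87.9 in the other IPF lungs and 17.0 to 89.3 in sham. Cardiac muscle markers summed to 171 FPKM in IPF replicate 4 and 153 FPKM in sham replicate 3, against 18.1 to 56.2 in the other lungs. IPF replicate 3 had a summed level of 129 FPKM for 10 ciliated airway markers, against 32.7 to 44.1 in the other IPF lungs and 35.9 to 74.6 in sham, and 262 FPKM for 10 smooth muscle markers against 139 to 173 in the other IPF lungs. The same lung had the lowest Acvrl1, Smad9 and Tbx4 values of all 10. Without it the differences were 0.14 for Tbx4 (limma adjusted p = 0.365) and 0.09 for Smad9 (adjusted p = 0.731), and neither Eif2ak4 (adjusted p = 0.152) nor Atp13a3 (adjusted p = 0.0704) was called. Over the 10 lungs, with group means removed, Tbx4 correlated with the mean of 8 pericyte markers (r = 0.96). Eng (r = 0.84), Acvrl1 (r = 0.83), Smad9 (r = 0.83) and Bmpr2 (r = 0.81) correlated with that of 8 aerocyte markers. Smad9 ran against the ciliated markers (r = -0.89). These values were picked as among the strongest over all marker lists and members. Tbx4 ran against the fibroblast (r = -0.82), smooth muscle (r = -0.65) and alveolar type 2 means (r = -0.87). With the mean of 6 general capillary markers the values were near or below 0 for the same genes (0.02 for Bmpr2, 0.05 for Acvrl1, -0.18 for Eng, -0.29 for Smad9 and -0.36 for Tbx4). In the same order they were 0.54, 0.65, 0.45, 0.27 and 0.26 with the pan-endothelial mean. With the arterial mean they were -0.41, -0.52, -0.38, -0.34 and -0.67. With the T and B cell mean the values ran from -0.62 for Eif2ak4 to 0.72 for Aqp1. With the mean of 16 circadian clock genes, which was lower in 5 of 5 IPF lungs (-0.79), the highest values were 0.82 for Eif2ak4 and 0.77 for Cav1, and the lowest was -0.46 for Aqp1. Of these clock genes 4 were called higher and 11 lower, so their mean is not a measure of clock phase. The part of tissue composition or of clock phase in the members' values was not tested.

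For each member the genes most like it were sought among 12058 protein-coding genes with a mean of at least 1 FPKM, as the highest Pearson r over the 10 lungs after the group means were removed. For Tbx4 it was Tbx2 (r = 0.97, rho = 0.95), its neighbour on the same strand at chr11:85832551-85841948, with 44473 bases between the genes. For Acvrl1 it was Sema3c (r = 0.96, rho = 0.92), followed by Atrip and Zfp64. Bmpr2 was followed by Nab1 (r = 0.97), Sos2 and Usp25, Eng by Scrib (r = 0.97), Stat3 and Eif4enif1, Smad9 by Ap2a1 (r = 0.95), Gab1 and Asb1, and Cav1 by Kdsr (r = 0.98), Cdc42ep4 and Tent5b. Aqp1 was nearest to Fem1a (r = 0.95), Ddx39 and Mri1, Atp13a3 to Top3a (r = 0.92), Tmem117 and Miga1, Sox17 to Zbtb12 (r = 0.95), Pabpn1 and Senp3, and Eif2ak4 to Vezf1 (r = 0.98), Slc22a5 and Arhgap24, while Lipg and Mnt came next for Tbx4. With so many genes and 10 lungs, high values of r arise for any gene, and these are given without a test.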

How the data were processed

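Lung tissue was frozen, RNA was extracted with Trizol and mRNA was sequenced by the submitters. The library kit is given as NEBNext Ultra in the labels and as KAPA mRNA HyperPrep in the study's methods. The authors deposited FPKM values per gene for 10 samples. Their methods name fastp, HISAT2 and StringTie with GRCm39, whereas gene positions in the table are those of GRCm38, which the submitters' processing notes list together with Bowtie 0.12.2, and use of strand is not given in the sources used here. FPKM times gene length gave whole reads for 100% of values under 2000 reads (tolerance 0.05), and these gave the depth.

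Values were tested as log2(FPKM + 0.1) with limma 3.58.1 (trended empirical Bayes) in R 4.3.3 on genes averaging 0.1 FPKM or more, IPF against sham, with no covariate and Benjamini-Hochberg adjustment over all of them. The script was tested on simulated data. Because the deposited unit is FPKM, limma took the place of the study's count test, and limma voom on the recovered reads was an alternative. Single genes also had a two-sided exact permutation test. Samples were grouped by their titles, and no sample was left out. All 10 members are named, and from each list that is not of cell type markers, clock or sex-linked genes up to 4 called genes with the smallest adjusted p, or else the 1 with the smallest. Bmpr1a, Smad1, Smad5, Id1, Gdf2, Bmp10, Bmp5, Bmp6, Pacsin2, Cavin1, Cav2, Atp13a2, Atf4, Asns, Tbx2, Tbx5, Kdr, Kcnk3, Cldn5, Xist and Ddx3y were chosen after their values were seen, as context. The 3 genes most like each member were taken by Pearson r. Where 2 rows shared a symbol (Ddit3, Ccl21a), the row with the higher mean was used. Promoter windows came from RefSeq by symbol. Members and lists were chosen with earlier results of these data known. Alternatives were 13 other settings and 10 fits without 1 sample each.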

Additional observations from a re-analysis of the deposited data

Results flagged for a closer look

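In 6 of 40 groups of 5 lungs examined, 1 lung stood apart from the others by Dixon's criterion, which chance meets in about 1 of 20 groups. Among the members, Cav1 reached 618 FPKM in IPF replicate 5 against 469 to 502 in the other IPF lungs, Tbx4 reached 49.1 FPKM in sham replicate 1 against 39.8 to 41.8 in the other sham lungs, and Eif2ak4 reached 5.07 FPKM in sham replicate 1 against 4.05 to 4.25. Without sham replicate 1 the Tbx4 difference was 0.12 (limma adjusted p = 0.575). Among the other genes, sham replicate 3 had 9.95 FPKM for Bmp3 against 11.5 to 11.8 and 26.7 FPKM for Bmp4 against 23.8 to 24.3, and IPF replicate 1 had 50.3 FPKM for Sox7 against 44.6 to 46.3.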

How the results depend on the processing

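Over 23 alternative fits, 141 of 156 values outside the leave-one-out fits kept their direction and their side of the threshold, or stayed within 1.5 times for a count, as did 107 of 120 in the leave-one-out fits. Some uncalled differences changed sign: Bmpr2 was -0.0055 with median-of-ratios scaling, -0.017 with quantile normalization, -0.11 relative to the pan-endothelial mean and -0.0027 with voom. Relative to the pan-endothelial mean, which by construction shifts every gene alike (median of all genes -0.11), Acvrl1 was -0.051, Eng -0.029, Tbx4 -0.052 and Sox17 -0.066, Smad9 was 0.058 with array weights, and Cav1 was -0.026 with quantile normalization. Atp13a3 was called relative to the pan-endothelial mean (-0.50) and with array weights (-0.41, adjusted p = 0.0473), and Eif2ak4 relative to the pan-endothelial mean (-0.39), so 2 and 1 members were called in these settings in place of 0. Beyond that shift, the cause was not tested. Without single replicates the differences ranged from -0.090 to 0.094 for Bmpr2, -0.071 to 0.094 for Smad9, -0.035 to 0.12 for Sox17, 0.028 to 0.11 for Acvrl1, 0.061 to 0.13 for Eng, 0.12 to 0.22 for Cav1, 0.11 to 0.18 for Aqp1, 0.017 to 0.14 for Tbx4, -0.46 to -0.31 for Atp13a3 and -0.32 to -0.22 for Eif2ak4, and 0 to 1 members were called. Between 5 and 7 BMP pathway genes were called in every alternative, split into 5 higher and 1 lower as deposited and 4 higher and 3 lower relative to the pan-endothelial mean. Same-numbered lungs of the 2 groups deviated together with correlations from -0.020 to 0.095, and 3 of 5 numbers correlated best with their own. These values do not settle whether the numbers mark pairs. The main fit takes no pairs because nothing states that the numbers pair animals. With the replicate block Atp13a3 was at -0.38 (adjusted p = 0.123) and Eif2ak4 at -0.27 (adjusted p = 0.128), 1045 of all genes were called in place of 1196, and no call of a member changed. With 5 lungs a group, the 95% intervals were, for example, -0.07 to 0.24 for Eng and -0.30 to 0.30 for Bmpr2, so differences of those sizes are not excluded.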
